A study of Homo sapiens with 6 samples.

Results

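Chemokines and the C5a receptors were followed through 6 RNA-seq libraries of T47D-YA cells, as 6 genes out of 23459 in the count table: the chemokine genes CCL2, CCL28, CXCL16 and CX3CL1 and the receptor genes C5AR1 and C5AR2. T47D-YA is a human luminal breast cancer line that carries the A form of the progesterone receptor. It had been given an empty vector (the controls, 2 libraries), the 18 kDa isoform of FGF2 (2 libraries) or the 22.5 kDa isoform of FGF2 (2 libraries), so all 3 groups share the parent line and the presence of a vector. The labels do not say whether a group was a pool or a clone, which promoter drove FGF2, or whether its libraries were grown separately. The p-values therefore reflect the spread between these libraries alone, and that spread may be technical. Genes were matched on their Entrez identifiers, and all 6 members had a row. CCL2, CCL28, C5AR1 and C5AR2 were chosen by their counts in these same libraries, over all 3 groups, so their values are given as a description with no test. CXCL16 and CX3CL1 were listed with no such reason stated. CX3CL1 had too few counts to be tested, which left 5 members of 6 past the filter on low counts.

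Chemokines are small secreted or shed proteins that bind G protein-coupled receptors and draw leukocytes along a gradient. CCL2 recruits monocytes through the receptor CCR2. CCL28, a chemokine of mucosal epithelia, acts through CCR10 and CCR3. CXCL16 and CX3CL1 are unusual in that they are made as membrane proteins on a mucin-like stalk, are released by the metalloproteases ADAM10 and ADAM17, and act through CXCR6 and CX3CR1. C5AR1 and C5AR2 bind C5a, the fragment released when complement C5 is cleaved. C5AR1 signals through G proteins, whereas C5AR2 does not couple to them and is regarded as a regulator of the response.

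C5AR1 and C5AR2 are adjacent genes on chromosome 19 and were both lowest in FGF2 libraries, though with different isoforms. The bases before a RefSeq start of each are therefore shown. With them are those before a start of CCL28, the chemokine gene with an entry in the same table. The windows are the 250 bases before a RefSeq gene start in build GRCh38.p14, read 5′ to 3′ on the strand of the gene: chr19:47309611-47309860 (plus strand) for C5AR1, chr19:47331925-47332174 (plus strand) for C5AR2 and chr5:43412392-43412641 (minus strand) for CCL28. The counts were made on hg19, so these positions serve only to place the printed sequence. Capitals mark matches, on either strand, to any of 7 motifs.
C5AR1: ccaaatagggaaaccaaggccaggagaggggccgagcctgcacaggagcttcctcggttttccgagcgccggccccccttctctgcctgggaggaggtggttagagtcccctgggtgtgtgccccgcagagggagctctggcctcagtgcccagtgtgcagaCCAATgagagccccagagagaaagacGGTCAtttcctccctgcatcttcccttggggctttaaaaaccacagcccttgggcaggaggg
C5AR2: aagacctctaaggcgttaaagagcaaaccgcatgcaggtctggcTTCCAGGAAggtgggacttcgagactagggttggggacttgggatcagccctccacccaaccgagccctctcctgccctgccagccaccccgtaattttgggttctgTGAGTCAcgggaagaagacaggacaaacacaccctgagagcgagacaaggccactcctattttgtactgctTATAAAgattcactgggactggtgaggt
CCL28: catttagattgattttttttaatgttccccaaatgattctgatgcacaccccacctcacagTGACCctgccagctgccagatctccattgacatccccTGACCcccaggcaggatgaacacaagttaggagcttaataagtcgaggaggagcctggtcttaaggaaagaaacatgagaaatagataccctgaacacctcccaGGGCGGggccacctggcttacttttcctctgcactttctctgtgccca

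The motifs searched were the TATA box (TATAAA), the CCAAT box (CCAAT), the GC box (GGGCGG), AP-1 (TGANTCA), STAT (TTCNNNGAA), the nuclear receptor core (GGTCA) and NF-kB by its usual 10-base consensus. Some motifs can overlap, such as a nuclear receptor core inside a longer element. The C5AR2 window held 1 TATA box, 28 bases before the start, with 1 AP-1 match at 99 bases and 1 STAT match at 206 bases. The C5AR1 window held none of those 3 and had 1 CCAAT box at 88 bases and 1 nuclear receptor core at 62 bases. The printed windows of the receptor genes shared no motif of this set, but the window before a second RefSeq start of C5AR2 held a nuclear receptor core at 61 bases, on the plus strand like that of C5AR1. The printed CCL28 window held 1 GC box at 48 bases and 2 nuclear receptor cores, at 152 and 189 bases. The window before a second RefSeq start of CCL28 held no match to any motif of this set. Among 35116 windows of this length, 10.7% held the TATA box, 32.0% the CCAAT box, 42.6% the GC box, 6.57% AP-1, 6.57% STAT and 32.6% the nuclear receptor core. NF-kB, found in 5.21% of windows, had no match in the 3 printed here and 1 match before the second start of C5AR2. A match is a description of letters and says nothing of binding.

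The libraries held 5317687 to 6817324 counted reads, and levels are CPM, counts put on a common library size with TMM factors, where 1 read is worth 0.153 to 0.2004 CPM. FGF2 itself checked the labels, with 12 and 13 reads in the control libraries against 4365 to 8731 in the others. FGF2 reads were not split by isoform. Their level was 961 and 767 CPM with 18 kDa FGF2, below the 1333 and 1555 CPM with 22.5 kDa FGF2. This difference did not pass (log2 0.74, SE 0.23, edgeR adjusted p = 0.1185). In the comparisons between the isoforms, the form of FGF2 and the amount of its RNA therefore cannot be told apart. Replicates differed by more than counting noise in every group: the chi-square between them, over its degrees of freedom, was 6.20 for the controls, 14.3 for 18 kDa and 14.25 for 22.5 kDa FGF2. Luminal markers were abundant: 9 of 11 were tested, and the summed level of all 11 was 15750 and 20570 CPM in the controls, 19410 and 23050 CPM with 18 kDa FGF2 and 12570 and 15440 CPM with 22.5 kDa FGF2. With edgeR, CD24 alone of these markers passed, lower with 22.5 kDa than with 18 kDa FGF2 (log2 difference -1.002), while DESeq2 also called EPCAM with 18 kDa FGF2 against the controls. The call of CD24 was lost without 22.5 kDa replicate 2 (edgeR quasi-likelihood adjusted p = 0.0402, and 0.25 without that library, 0.00164 to 0.25 over all alternatives).

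Leukocytes are the usual source of CCR2 and C5AR1, and most of their markers had few or no reads in every group. The 15 leukocyte markers summed to 14.5 and 19.0 CPM in the controls, 15.4 and 17.6 CPM with 18 kDa FGF2, and 12.7 and 18.0 CPM with 22.5 kDa FGF2, so the 3 ranges overlapped. PTPRC, the pan-leukocyte marker, had 1 count in 1 library of the empty vector and in 1 of 18 kDa FGF2, and none elsewhere. AIF1, CD3D and CD3E had no count in any library. Of the 3 leukocyte markers with enough reads, 0 passed in any comparison with edgeR, 0 did with DESeq2 and 0 had an unadjusted p under 0.05. ITGB2, an integrin subunit and the leukocyte marker with the most reads, was at 6.36, 9.09 and 7.95 CPM over the 3 groups. The 8 endothelial markers summed to 3.82 to 7.37 CPM, with PECAM1 and CDH5 at 0 or 1 count, and the 10 fibroblast markers to 69.6 and 84.8 CPM in the empty vector and 55.5 to 61.5 CPM in the FGF2 libraries. Of 5 fibroblast markers tested, THY1 alone passed, beside 8.88% and 10.9% of all genes. It fell with both isoforms (log2 fold change -3.24, adjusted p = 0.000895 and -4.38, adjusted p = 0.00017, edgeR), and with 18 kDa FGF2 it missed the threshold with DESeq2 (0.0531). The others were at -0.68 to -0.28 with 18 kDa FGF2. With 22.5 kDa FGF2 they went both ways, with COL1A1 at -0.69 and PDGFRA at -0.21, but COL1A2 at 1.33 and COL3A1 at 0.98. VWF rose (2.32, adjusted p = 0.0118) and KDR fell (-1.76, adjusted p = 0.047) with 18 kDa FGF2. VWF lost its call with DESeq2 (0.131) and without control replicate 1 (0.195), over a range of 0.00269 to 0.195, and KDR lost its call in 7 of 11 alternatives (0.0225 to 0.678). What part such cells might have in the values below was not tested.

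CCL2, the monocyte attractant, was close to absent in the control cells and abundant with either isoform. It had 1 and 3 counts in the controls, 460 and 241 with 18 kDa FGF2, and 251 and 161 with 22.5 kDa FGF2. These are levels of 0.179 and 0.563 CPM, 70.6 and 42.3 CPM, and 38.3 and 32.3 CPM. All 4 FGF2 libraries lay above both controls, and the 18 kDa libraries, which differed the most from each other, lay above the 22.5 kDa ones. From 701 against 4 reads the ratio was 157 for 18 kDa FGF2 (exact binomial 95% interval 61.0 to 577), and from 412 against 4 reads it was 97.5 for 22.5 kDa FGF2 (37.8 to 360). These intervals cover counting error only, and so do the other intervals and floors given here. In RNA from bulk cultures, fewer cells with a transcript and less transcript per cell cannot be told apart. The fitted log2 fold changes were 7.19 (SE 0.48) and 6.51 (SE 0.49), and between the isoforms -0.68 (SE 0.29). Without empty vector replicate 2, the library with 3 of the 4 control reads, the changes were 8.15 and 7.47.

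**Figure D1:**
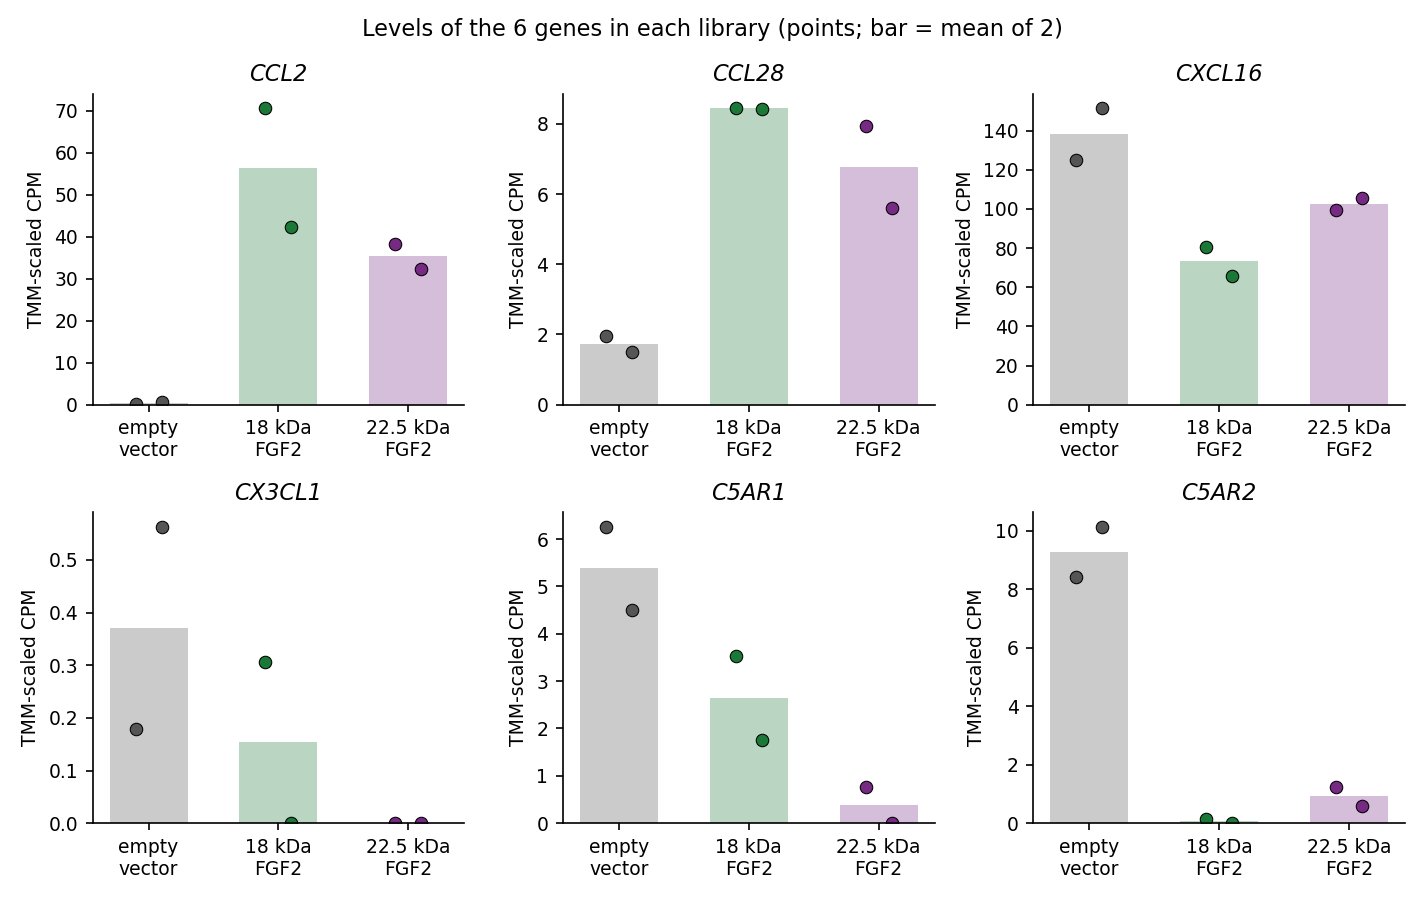
Level of each member in TMM-scaled CPM (vertical axis, linear from 0, a scale of its own per gene) in the empty vector, 18 kDa FGF2 and 22.5 kDa FGF2 groups; points are libraries and bars the mean of 2. CCL2 and CCL28 are higher in all FGF2 libraries than in both controls, C5AR2 is lowest with 18 kDa FGF2 and C5AR1 with 22.5 kDa FGF2.

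Of the 6 genes beside CCL2 on chromosome 17, all but TMEM98 were silent. CCL7, CCL11 and CCL8, the chemokine genes that follow CCL2 in the cluster of CC chemokines, had no count in any of the 6 libraries, and neither had ASIC2 and SPACA3 on the other side. TMEM98, the next gene on that side, had 115, 124 and 148 counts per group and did not pass (log2 fold change -0.07, adjusted p = 0.943 with 18 kDa and 0.30, adjusted p = 0.711 with 22.5 kDa FGF2, edgeR). CCL2 was the only chemokine gene with a read among these 7 neighbouring genes. A count of 0 in a group allows up to 3 reads, which is 0.246 to 0.275 CPM depending on the group.

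CCL28, the mucosal chemokine, was low in the controls and higher with both isoforms. The libraries had 11 and 8 counts in the controls, 55 and 48 with 18 kDa FGF2, and 52 and 28 with 22.5 kDa FGF2, or 1.97 and 1.501 CPM, 8.44 and 8.43 CPM, and 7.94 and 5.61 CPM. The controls lay below every FGF2 library, and the 22.5 kDa libraries below both 18 kDa ones. Fitted log2 fold changes were 2.27 (SE 0.47) for 18 kDa and 1.96 (SE 0.47) for 22.5 kDa FGF2, with -0.31 (SE 0.40) between the isoforms, a difference smaller than its error. Of the 3 nearest genes on each side of CCL28 on chromosome 5, 5 had enough reads and none passed in any comparison with edgeR (ZNF131, HMGCS1, TMEM267, C5orf34 and PAIP1), with log2 fold changes against the empty vector from -0.84 (C5orf34) to 0.31 (TMEM267). HMGCS1, the cholesterol synthesis gene next to CCL28, was at -0.80 with 18 kDa FGF2 (adjusted p = 0.091). Over all genes tested, 8.88% passed with 18 kDa FGF2, 10.9% with 22.5 kDa FGF2 and 1.58% between the isoforms, so none of 5 is near those shares. CCL28 was chosen for its pattern and its neighbours were not, so the contrast between them is a description.

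CXCL16, the membrane-bound ligand of CXCR6, had the most reads of any chemokine gene in each group and fell with 18 kDa FGF2. Its counts were 700 and 807 in the controls, 524 and 375 with 18 kDa FGF2, and 651 and 526 with 22.5 kDa FGF2. The levels were 125 and 151 CPM, 80.4 and 65.9 CPM, and 99.4 and 105 CPM, so the 22.5 kDa group lay between the others and no groups overlapped. The log2 fold change was -0.92 with 18 kDa FGF2 (SE 0.22, edgeR quasi-likelihood adjusted p = 0.00595), from 138 ± 18.6 to 73.2 ± 10.3 CPM (SD, n = 2). The call was lost without control replicate 2 (0.176) or 18 kDa replicate 2 (0.0633), with adjusted p-values of 0.00164 to 0.176 over all alternatives. With 22.5 kDa FGF2 it was at -0.43 (SE 0.21, adjusted p = 0.223) and did not pass, and neither did the difference between the isoforms (0.48, SE 0.22, adjusted p = 0.355). MED11 overlaps CXCL16 on the opposite strand, and as no source used here says whether strand entered the counting, both values are uncertain. MED11 was at 0.45 and 0.45 against the empty vector and did not pass (adjusted p = 0.549 and 0.53). ZMYND15, the gene on the other side of CXCL16, fell with 18 kDa FGF2 (-1.66, SE 0.48, adjusted p = 0.0301), a call that was lost in 6 of 11 alternatives (0.0246 to 0.241). The neighbours PELP1, ARRB2 and VMO1 did not pass in any comparison, and TM4SF5 had no count.

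CX3CL1, the other membrane-bound chemokine, was barely detected. It had 1 and 3 counts in the controls, 2 and 0 with 18 kDa FGF2 and 0 and 0 with 22.5 kDa FGF2. The empty vector level was at most 0.563 CPM, and 0 counts with 22.5 kDa FGF2 allow up to 0.260 CPM over the group, so a difference was not detectable at this depth. Its chemokine neighbour CCL22 on chromosome 16 had 19, 21 and 17 counts per group and did not pass in any comparison (log2 fold change -0.03, adjusted p = 0.983 and -0.23, adjusted p = 0.881 against the empty vector, edgeR). CCL17, on the other side, had 5, 16 and 4 counts and was not tested. None of the other neighbours (ARL2BP, PLLP, CIAPIN1 and COQ9) passed in any comparison with edgeR.

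C5AR1, the G protein-coupled receptor of C5a, was highest in the controls, intermediate with 18 kDa FGF2 and near the detection limit with 22.5 kDa FGF2. It had 35 and 24 counts in the controls, 23 and 10 with 18 kDa FGF2, and 5 and 0 with 22.5 kDa FGF2. The levels were 6.26 and 4.50 CPM, 3.53 and 1.76 CPM, and 0.764 CPM and 0 CPM, where 0 counts allow up to 0.601 CPM. The 3 groups did not overlap. From 5 against 59 reads, the 22.5 kDa group was 12.5-fold under the empty vector (interval 5.05 to 39.8), and from 5 against 33 reads it was 6.24-fold under 18 kDa FGF2 (2.42 to 20.5). The fitted log2 fold changes were -1.01 (SE 0.53) for 18 kDa and -3.60 (SE 0.70) for 22.5 kDa FGF2, with -2.59 (SE 0.75) between the isoforms. Without 22.5 kDa replicate 1, which holds all 5 reads of its group, the last 2 were -7.92 and -6.94, and without 22.5 kDa replicate 2 they were -2.77 and -1.80.

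C5AR2, the receptor that does not couple to G proteins, showed the other order. It had 47 and 54 counts in the controls, 1 and 0 with 18 kDa FGF2, and 8 and 3 with 22.5 kDa FGF2, or 8.40 and 10.1 CPM, 0.154 and 0 CPM, and 1.22 and 0.601 CPM. All FGF2 libraries were far below both controls, and both 22.5 kDa libraries were above both 18 kDa libraries, which stood at or under 1 read. With 18 kDa FGF2 the ratio of reads was 113-fold downward on 1 against 101 reads (interval 19.8 to 4502), and with 22.5 kDa FGF2 9.70-fold downward on 11 against 101 reads (5.20 to 20.05). Between the isoforms it was 11.6-fold upward with 22.5 kDa FGF2, on 11 against 1 read, with an interval of 1.69 to 501. The fitted log2 fold changes were -6.49 (SE 0.76) and -3.27 (SE 0.53), with 3.22 (SE 1.04) between the isoforms, and those that rest on 0 or 1 read move with the prior count. Without 18 kDa replicate 1, which holds the 1 read of its group, the changes were -8.69 and 5.45, without 18 kDa replicate 2 they were -5.68 and 2.41, and without 22.5 kDa replicate 1 the change with 22.5 kDa FGF2 was -3.90 and the one between the isoforms 2.56. The lower of the receptor genes was thus C5AR2 in the 18 kDa libraries, at 0.0191 CPM per kilobase of transcript against 1.71 for C5AR1. In the 22.5 kDa libraries the levels per kilobase were 0.227 for C5AR2 and 0.247 for C5AR1, and the libraries overlapped.

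**Figure D2:**
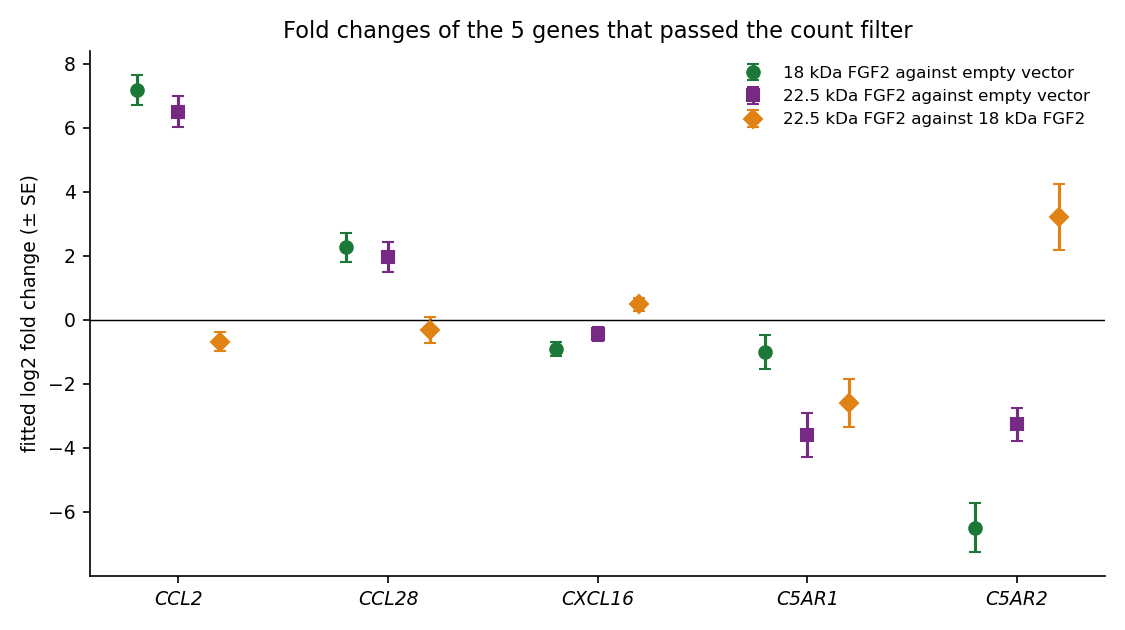
Fitted log2 fold change with its standard error (vertical axis) for the 5 members with enough reads, for each isoform against the empty vector and for 22.5 kDa against 18 kDa FGF2. The difference between the isoforms is -0.68 for CCL2 and -0.31 for CCL28, but -2.59 for C5AR1 and 3.22 for C5AR2, in opposite directions.

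CXCL16 was thus the 1 member with a test, and it passed with 18 kDa FGF2 and not in the other comparisons (edgeR, adjusted p under 0.05). Across all 13124 genes tested, 8.88% passed with 18 kDa FGF2, 4.09% higher and 4.79% lower. With 22.5 kDa FGF2 10.9% of all genes passed (5.02% higher, 5.88% lower), and between the isoforms 1.58% (1.13% higher, 0.450% lower). For CCL2, CCL28, C5AR1 and C5AR2 no call is counted, since their pattern was the reason for their choice. The comparisons with the empty vector share their control libraries, so they are not independent of each other.

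The order of the 6 levels changed between groups when expressed per kilobase of transcript. In the empty vector CXCL16 led with 82.9 CPM per kilobase, then came C5AR1 (3.48), C5AR2 (2.31), CCL28 (0.747), CCL2 (0.502) and CX3CL1 (0.112), and only CCL28 and CCL2 overlapped as neighbours. CCL2 and CX3CL1 had the same reads there, 1 and 3 per library, so their order comes from transcript length alone and rests on few reads. With 18 kDa FGF2, CCL2 led with 76.5 CPM per kilobase, above CXCL16 (43.9) in both libraries, followed by CCL28 (3.63), C5AR1 (1.71), CX3CL1 (0.0463) and C5AR2 (0.0191), and the last pair overlapped. With 22.5 kDa FGF2, CXCL16 (61.4) was again above CCL2 (47.8) in both libraries, and CCL28 (2.92) above C5AR1 and C5AR2, which overlapped, with CX3CL1 at 0.

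Receptors for these chemokines were measured in the same libraries and were not members. Of 23 chemokine receptor genes, 7 had enough reads, CCR2 only through its FGF2 libraries, which largely fixed its direction in the counts that follow. With 18 kDa FGF2, 3 rose and 0 fell (CCR2, ACKR2 and CX3CR1), with 22.5 kDa FGF2 1 rose and 1 fell (CCR2 and CCR10), and between the isoforms 0 were higher and 2 lower with 22.5 kDa (ACKR2 and CX3CR1). Of all genes tested, 8.88% passed with 18 kDa FGF2, 10.9% with 22.5 kDa FGF2 and 1.58% between the isoforms (edgeR). DESeq2 called 2, 1 and 1 of the 7 receptor genes in these comparisons. The median log2 fold change of the 7 was -0.53, -0.24 and 0.11, against -0.05, 0.01 and 0.02 over all genes tested.

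CCR2, the receptor of CCL2, rose with both isoforms. It had 5 and 4 counts in the controls, 58 and 38 with 18 kDa FGF2, and 76 and 37 with 22.5 kDa FGF2, so that every FGF2 library was above both controls. CCR2 passed the filter on low counts through the FGF2 libraries alone, so a fall could hardly have been called. The log2 fold change with 18 kDa FGF2 was 3.21 (SE 0.53, edgeR adjusted p = 0.000187), and the one with 22.5 kDa FGF2 was 3.50 (SE 0.53, adjusted p = 5.09e-05). Both calls held in all 11 alternatives, with 0.29 (SE 0.40, adjusted p = 0.822) between the isoforms.

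ACKR2, the atypical receptor that takes up and degrades inflammatory CC chemokines such as CCL2, rose with 18 kDa FGF2 and was near the control level with 22.5 kDa FGF2. Its levels were 17.7 and 13.5 CPM in the controls, 72.6 and 50.6 CPM with 18 kDa FGF2, and 15.3 and 13.0 CPM with 22.5 kDa FGF2, the last group overlapping the controls. The log2 fold change was 1.98 with 18 kDa FGF2 (SE 0.29, edgeR adjusted p = 4.15e-05) and -0.14 with 22.5 kDa FGF2 (SE 0.30, adjusted p = 0.849). The difference between the isoforms passed (-2.12, SE 0.29, adjusted p = 6.8e-05), except without 22.5 kDa replicate 2 (0.0564, 4.61e-10 to 0.0564 over all alternatives).

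CX3CR1, the receptor of CX3CL1, had a like order over the groups, with 10 and 11 counts in the controls, 36 and 40 with 18 kDa FGF2 and 7 and 7 with 22.5 kDa FGF2. It rose with 18 kDa FGF2 (1.69, SE 0.47, edgeR adjusted p = 0.0211) and differed between the isoforms (-2.34, SE 0.50, adjusted p = 0.0101). The first call was lost with DESeq2 (0.167) and without either control library (0.231 and 0.119) or 18 kDa replicate 2 (0.0737), over a range of 0.013 to 0.231. The second was lost with DESeq2 (0.097) and without either 22.5 kDa library (0.238 and 0.135), over a range of 0.0015 to 0.238. Its ligand CX3CL1 had 4, 2 and 0 counts in the same groups.

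CCR10, the receptor of CCL28, fell with 22.5 kDa FGF2. It had 20 and 22 counts in the controls, 13 and 12 with 18 kDa FGF2, and 5 and 6 with 22.5 kDa FGF2, with no overlap of the groups. The log2 fold change was -1.98 (SE 0.54, edgeR adjusted p = 0.0171), and with 18 kDa FGF2 it was at -0.90 (SE 0.48, adjusted p = 0.303). The call was lost with DESeq2 (0.174) and without any 1 of the 4 libraries compared (0.0656 to 0.172), over a range of 0.00765 to 0.174. CCR3, the other receptor of CCL28, had 3, 1 and 4 counts, and CXCR6, the receptor of CXCL16, had 0, 3 and 5 counts, so neither was tested. CXCR4, the chemokine receptor gene with the most reads after ACKR2, ranged widely within groups, at 14.5 and 36.0 CPM in the controls, 18.7 and 6.32 CPM with 18 kDa FGF2 and 44.4 and 32.3 CPM with 22.5 kDa FGF2, and did not pass (edgeR, between the isoforms 1.61, adjusted p = 0.268).

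**Figure D3:**
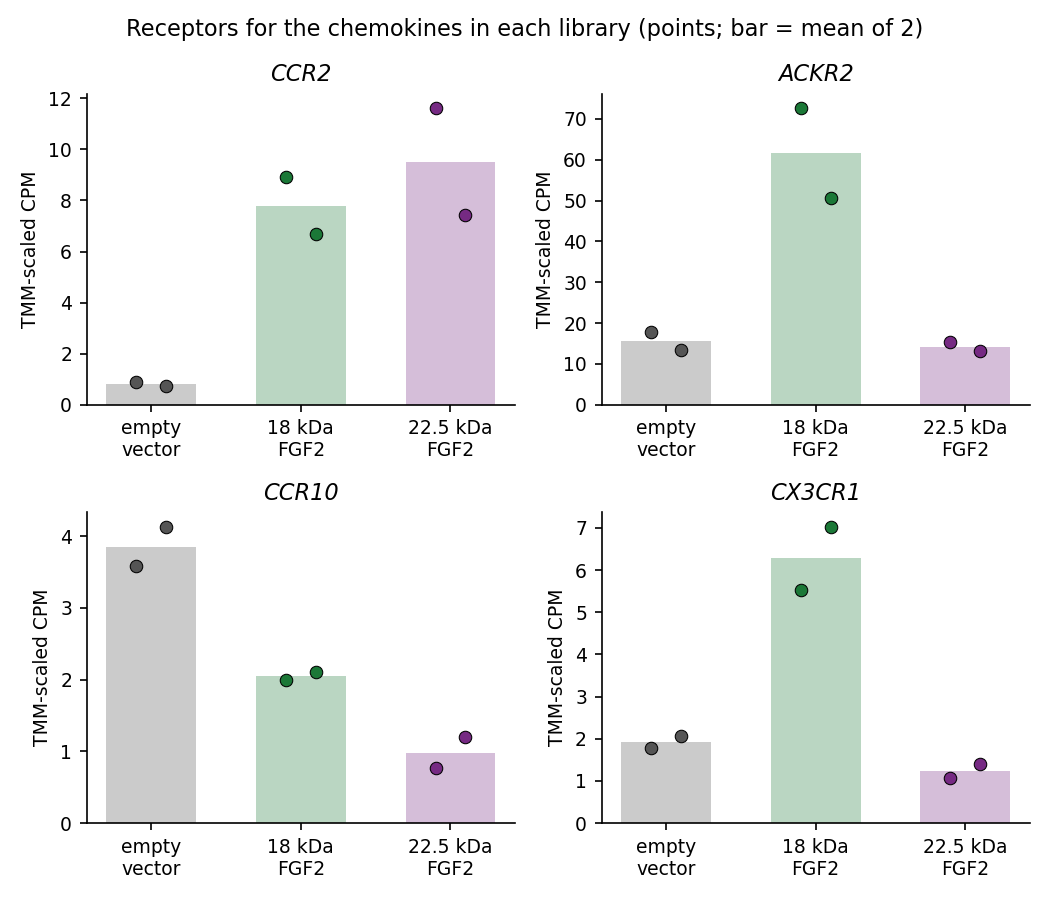
Level in TMM-scaled CPM (vertical axes, linear from 0) of CCR2, ACKR2, CCR10 and CX3CR1 in each group; points are libraries and bars the mean of 2. CCR2 is higher with both isoforms, whereas ACKR2 and CX3CR1 are high with 18 kDa FGF2 and near the controls with 22.5 kDa FGF2.

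Chemokines other than the members were sparse. Of 46 chemokine genes listed, 45 were in the table, 19 had no count in any library, and 5 had enough reads, the members CCL2, CCL28 and CXCL16 with CCL5 and CCL22. Without the members 0 of 2 passed in any comparison, with edgeR or DESeq2, and 0 had an unadjusted p under 0.05. CCL5, a lymphocyte attractant, did not pass (-0.07, adjusted p = 0.964 with 18 kDa and 0.68, adjusted p = 0.522 with 22.5 kDa FGF2, edgeR). Its libraries overlapped between groups, at 2.68 and 1.31 CPM, 1.07 and 2.81 CPM, and 4.12 and 2.21 CPM. The neutrophil attractant CXCL8 had 1 read in all, CXCL1 6 reads, CXCL10, an interferon-induced chemokine, 4 reads, and CXCL12, the ligand of CXCR4, 12 reads over the 6 libraries. CCL3L3 had 30 reads, and as a near-identical copy of CCL3 its value is uncertain.

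Of 37 complement components and regulators, 12 had enough reads, and without C5AR1 and C5AR2 1 of 10 rose with 18 kDa FGF2 (CLU), 1 of 10 rose with 22.5 kDa FGF2 (CD55) and 1 of 10 was lower with 22.5 than with 18 kDa FGF2 (CLU), with none called the other way by edgeR. The shares against the controls lie near the 8.88% and 10.9% of all genes that passed with 18 kDa and 22.5 kDa FGF2. Between the isoforms 1.58% of all genes passed, 0.450% of them lower with 22.5 kDa FGF2 as a share of all genes. The 1 of 10 there is CLU alone. The medians of the 10 were -0.48, 0.31 and 0.36. CLU, the gene of clusterin, a secreted chaperone that blocks the membrane attack complex, went from 799 ± 91.8 to 2495 ± 227 CPM with 18 kDa FGF2 (SD, n = 2). That is a log2 fold change of 1.64 (SE 0.24, edgeR adjusted p = 5.04e-05), with 977 ± 85.5 CPM with 22.5 kDa FGF2. The difference of -1.35 between the isoforms (SE 0.24, adjusted p = 0.00198) passed in all 11 alternatives, as did the rise with 18 kDa FGF2. CD55, which breaks up the complement convertases, rose with 22.5 kDa FGF2 (1.06, SE 0.26, adjusted p = 0.00684) but its call was lost without control replicate 2 (0.102) or 22.5 kDa replicate 1 (0.11), over a range of 0.000767 to 0.11. CD59, which stops the attack complex from forming, was at 161, 129 and 201 CPM and did not pass (-0.32, adjusted p = 0.449 and 0.32, adjusted p = 0.402). C5, the source of C5a, was at 3.12, 1.82 and 2.13 CPM (-0.78, adjusted p = 0.451 and -0.50, adjusted p = 0.632), and C3 was at 10.4, 5.63 and 13.1 CPM (-0.88, adjusted p = 0.215 and 0.35, adjusted p = 0.666), so neither passed. C3AR1, the receptor of the C3a fragment, had 2 reads in all.

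Of 19 genes of proteases and inhibitors that process chemokines or C5a, 9 were tested. With edgeR, 1 rose and 2 fell with each isoform (medians 0.03 and 0.07). Of all genes tested, 8.88% passed with 18 kDa FGF2, 10.9% with 22.5 kDa FGF2 and 1.58% between the isoforms. Between the isoforms 0 of the 9 passed (median 0.15) by edgeR, 0 by DESeq2 and 0 at an unadjusted p under 0.05. Carboxypeptidase M, a membrane enzyme that trims C5a and other peptides (symbol CPM, Entrez 1368), had 56 counts in the controls, 5 with 18 kDa FGF2 and 4 with 22.5 kDa FGF2. It fell by 3.58 (SE 0.61, adjusted p = 0.000235) and by 3.81 (SE 0.63, adjusted p = 0.000162) on the log2 scale, in all 11 alternatives. TIMP1, an inhibitor of metalloproteases, rose by 1.24 (adjusted p = 0.0017) and 0.87 (adjusted p = 0.0242). CTSB, the lysosomal protease cathepsin B, fell by 0.96 (adjusted p = 0.00421) and by 0.75 (adjusted p = 0.0224). TIMP1 with 22.5 kDa FGF2 was lost without any 1 of the 4 libraries compared (0.0509 to 0.223, and 0.00904 to 0.223 over all alternatives). CTSB was lost with 18 kDa FGF2 when control replicate 2 was left out (0.124, 0.000729 to 0.124). With 22.5 kDa FGF2 it was lost without either control library (0.0829 and 0.313) or 22.5 kDa replicate 1 (0.149), over a range of 0.0103 to 0.313. ADAM10 and ADAM17, the sheddases of CXCL16 and CX3CL1, were at -0.29 (adjusted p = 0.73) and 0.17 (adjusted p = 0.831) with 18 kDa FGF2, and at 0.07 (adjusted p = 0.944) and 0.35 (adjusted p = 0.594) with 22.5 kDa FGF2.

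Of 39 NF-kB factors and inflammatory cytokines, 25 were tested, and 1 rose and 1 fell with 18 kDa FGF2, 2 rose and 0 fell with 22.5 kDa FGF2 and 0 passed between the isoforms with edgeR (medians -0.04, -0.09 and 0.12). That is 2 of 25 with each isoform, beside 8.88% and 10.9% of all genes. DESeq2 called 0, 1 and 0 of them in these comparisons, and 4, 5 and 1 had an unadjusted p under 0.05 with edgeR. REL, the gene of the subunit c-Rel, rose from 0.728 ± 0.234 CPM to 3.06 ± 0.64 CPM (2.03, adjusted p = 0.0304) and 3.79 ± 1.11 CPM (2.36, adjusted p = 0.00779) (SD, n = 2). Its first call was lost in 5 of 11 alternatives (0.0194 to 0.253) and its second in 3 (0.00231 to 0.121). IL18, a cytokine of the interleukin-1 family, fell with 18 kDa FGF2 (-1.70, adjusted p = 0.0133), a call lost in 4 of 11 alternatives (0.0078 to 0.0874). IL32 rose with 22.5 kDa FGF2 (2.14, adjusted p = 0.022), where its SD of 8.73 CPM was close to its mean of 10.8 CPM, and the call was lost without 22.5 kDa replicate 1 (0.408, 0.000119 to 0.408 over all alternatives). NFKBIA, the inhibitor that NF-kB itself induces, was at -0.04 (adjusted p = 0.944) and 0.03 (adjusted p = 0.963), and RELA at -0.24 (adjusted p = 0.631) and -0.19 (adjusted p = 0.693). TNIP1, which restrains NF-kB signalling, was at 0.02 (adjusted p = 0.974) and -0.06 (adjusted p = 0.917).

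Of 37 genes that carry the signal of chemokine and C5a receptors inside the cell, 28 were tested. With edgeR, 4 fell with 18 kDa FGF2, 3 fell with 22.5 kDa FGF2 and 0 rose in either. Between the isoforms 0 passed, and the medians were -0.19, -0.11 and -0.09. Of all genes tested, 4.79% and 5.88% fell with these isoforms, and 8.88% and 10.9% passed in either direction. Between the isoforms 1.58% of all genes passed. DESeq2 called 3, 3 and 1 of the 28, and 7, 6 and 3 had an unadjusted p under 0.05 with edgeR. With 22.5 kDa FGF2, DESeq2 called GNB4 and not GNAI1, and between the isoforms it called GNB4. GNAI1, an inhibitory G protein alpha subunit of the kind these receptors use, had 35 counts in the controls, none with 18 kDa FGF2 (at least 13.0-fold lower, against a floor of 3 counts over the group; adjusted p = 0.00032) and 4 with 22.5 kDa FGF2 (9.24-fold lower, interval 3.31 to 35.8; adjusted p = 0.00622). The second call was lost with DESeq2 (0.147) and without 22.5 kDa replicate 2 (0.134), over a range of 0.000452 to 0.147. Its paralogue GNAI2, at 187, 211 and 172 CPM, did not pass (0.18, adjusted p = 0.705 and -0.12, adjusted p = 0.815). GNB4, a G protein beta subunit, fell with 18 kDa FGF2 from 69.8 ± 13.0 to 7.90 ± 4.23 CPM (-3.15, adjusted p = 0.00198). With 22.5 kDa FGF2 it was at 30.25 ± 17.26 CPM and did not pass with edgeR (-1.20, adjusted p = 0.113). ELMO1, part of the complex that activates Rac in cell migration, fell by 1.93 (adjusted p = 0.0102) and by 2.93 (adjusted p = 0.000547). PREX1, another activator of Rac, fell by 1.32 with 18 kDa FGF2 (adjusted p = 0.00182), and ARRB1, an arrestin gene, fell by 0.72 with 22.5 kDa FGF2 (adjusted p = 0.0378). ELMO1 with 18 kDa FGF2 was lost with DESeq2 (0.135) and without control replicate 1 (0.11) or 18 kDa replicate 1 (0.113), over a range of 0.00457 to 0.135. PREX1 was lost without control replicate 2 (0.0957, 9.34e-05 to 0.0957 over all alternatives) and ARRB1 without any 1 of the 4 libraries compared (0.103 to 0.416, and 0.0183 to 0.416 over all alternatives). GNB2 and RAC1, the genes of the list with the most reads, were at -0.22 (adjusted p = 0.65) and -0.51 (adjusted p = 0.172) with 18 kDa FGF2.

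On chromosome 19 the genes around C5AR1 and C5AR2 did not all move with them. DHX34, directly beyond C5AR2, was at 0.30 (SE 0.23, edgeR adjusted p = 0.513) and 0.27 (SE 0.23, adjusted p = 0.545). INAFM1, directly before C5AR1, was at -0.16 (adjusted p = 0.853) and -0.66 (adjusted p = 0.295). MEIS3, a homeobox gene beyond DHX34, fell with 22.5 kDa FGF2 from 21.5 ± 1.73 to 4.84 ± 1.66 CPM (-2.16, SE 0.38, adjusted p = 0.000273), in all 11 alternatives, and was at -0.56 with 18 kDa FGF2 (adjusted p = 0.399). The difference between the isoforms passed for MEIS3 (-1.61, SE 0.38, adjusted p = 0.0235) but not without 18 kDa replicate 1 (0.08) or either 22.5 kDa library (0.374 and 0.12), over a range of 0.00387 to 0.374. CCDC9 fell with 22.5 kDa FGF2 (-0.83, adjusted p = 0.0393), a call lost in 5 of 11 alternatives (0.0172 to 0.252). SLC8A2, beyond MEIS3, was at -0.86 (adjusted p = 0.203) and -1.15 (adjusted p = 0.0629). BBC3, on the far side of CCDC9, was at 0.48 (adjusted p = 0.52) and -0.10 (adjusted p = 0.923). None of the 6 genes around the receptor pair passed with 18 kDa FGF2, which is near the 8.88% of all genes that did. With 22.5 kDa FGF2, MEIS3 and CCDC9 passed, both lower, beside 10.9% of all genes, 5.88% of them lower as a share of all genes.

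Genes with the profile most like that of a member were found by the root mean square distance of log2 CPM over the 6 libraries, each gene centred on its own mean, among 13123 others. Nearest to CCL2 was DSCAM, a neural adhesion gene (distance 0.55, Pearson r 0.99), followed by the near-identical cancer-testis genes SSX2 and SSX2B (0.57). DSCAM was at 0.536 and 0.750 CPM in the empty vector and 34.6 to 43.1 CPM in the FGF2 libraries. Among those nearest to CCL28 were OTOR (0.22) and INSYN1 (0.23), with OTOR at 1.61 and 1.69 CPM in the controls, 8.59 and 9.84 CPM with 18 kDa FGF2, and 6.41 and 6.82 CPM with 22.5 kDa FGF2. ITGB5, an integrin subunit gene, was nearest to CXCL16 (0.06), followed by PTOV1-AS1 (0.07), an antisense gene whose counts are uncertain without strand, and NPTX1 (0.07).

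The pair of C5a receptors had different nearest genes. FNDC11 (0.38), AOC2 (0.45) and CRYAB, a small heat shock protein gene (0.45), were nearest to C5AR1. CRYAB was at 25.2 and 28.0 CPM in the empty vector, 14.9 and 12.7 CPM with 18 kDa FGF2, and 2.60 and 1.80 CPM with 22.5 kDa FGF2. FJX1 (0.31), P2RX5, an ATP-gated channel gene (0.38), and THSD4 (0.40) were nearest to C5AR2. FJX1 was at 43.1 and 41.1 CPM, 2.92 and 1.58 CPM, and 9.47 and 7.02 CPM in the same groups, again lowest with 18 kDa FGF2. These libraries and their scaling are shared by all genes, so the likeness is a description of 6 points in 3 groups.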

How the data were processed

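RNA sequencing measured mRNA in 6 libraries, 2 per group, grouped by the labels. The authors deposited raw counts of reads per Entrez gene, whole numbers with no normalization. Libraries were directional and paired-end, per the labels' protocols, with hg19 and edgeR named in the submitters' processing notes. No source used here names the aligner, the counter or its strand setting. RefSeq symbols (GRCh38.p14) matched 23308 of 23459 Entrez identifiers, and the RefSeq promoter table gave windows for 3 of the 6 members. Transcript lengths, medians over protein-coding transcripts, and overlapping genes are from GENCODE release 29.

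The counts were modelled with edgeR 4.0.16 in R 4.3.3 (TMM factors, filterByExpr on the groups, trended dispersions, a robust quasi-likelihood test, two-sided, Benjamini-Hochberg over 13124 genes, passing under 0.05). All 6 libraries entered 1 model with group alone. A gene could pass the filter through the libraries of 1 group. For example, CCR2 and REL passed through FGF2 libraries alone, and THY1, GNAI1 and carboxypeptidase M through the controls alone. That largely fixed the direction of their calls. With 2 libraries against 2, no permutation test of a single gene was used. The standard error is the log2 fold change over the root of its F statistic. Log2 CPM uses a prior count of 2. The script was tested on simulated data. Alternatives were DESeq2 1.42.0, DESeq2 size factors, no filter, only the groups compared, a replicate block, and each library left out. Where a group is left with 1 library, it is assumed to vary like the others.

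The members and gene lists were chosen with earlier results of these data known. Named genes are the members, up to 4 list members that passed by smallest p (or the most abundant), the 3 protein-coding neighbours on each side and the 3 genes nearest in profile, of which 1 is not reported here. Other receptors, ligands and enzymes of the lists were named for their textbook link to a member, after their values were seen.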

Additional observations from a re-analysis of the deposited data

Results flagged for a closer look

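Of the genes named beside the members, 5 had effects of the isoforms that differed by the test of the difference itself (22.5 kDa minus 18 kDa FGF2, edgeR quasi-likelihood test, Benjamini-Hochberg over 13124 genes). The log2 difference was -2.12 for the chemokine-degrading receptor ACKR2 (adjusted p = 6.8e-05), -2.34 for the CX3CL1 receptor CX3CR1 (adjusted p = 0.0101), -1.35 for clusterin, CLU (adjusted p = 0.00198), -1.61 for MEIS3, beyond C5AR2 on chromosome 19 (adjusted p = 0.0235), and -1.002 for the luminal marker CD24 (adjusted p = 0.0402). In each of the 5, both 22.5 kDa libraries lay below both 18 kDa libraries. Because the 5 were picked by the test of this difference in these libraries, that order is a description and no further support. Over all genes tested, 1.58% passed this test, 1.13% higher and 0.450% lower with 22.5 kDa FGF2. The named genes include list members picked because they passed, so the number and shared direction of the 5 are a description too. The difference of CLU passed in all 11 alternatives, and each of the others missed the threshold in at least 1 of them.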

How the results depend on the processing

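Of 36 calls named outside the members, 13 were kept in all 11 alternatives and 0 reversed. Leaving out 1 library gave 617 to 1440 passing genes for 18 kDa FGF2 against the empty vector, 630 to 1964 for 22.5 kDa FGF2, and 37 to 733 between the isoforms, where 207 became 445 with no filter on low counts. For 18 kDa FGF2, log2 fold changes then ranged from 6.60 to 8.15 (CCL2), -1.05 to -0.73 (CXCL16, call lost at -0.77 and -0.73) and -8.69 to -5.68 (C5AR2). For 22.5 kDa FGF2 they ranged from 5.92 to 7.47 (CCL2), -7.92 to -2.77 (C5AR1) and -3.90 to -2.88 (C5AR2). Between the isoforms they ranged from -6.94 to -1.80 (C5AR1) and 2.41 to 5.45 (C5AR2). The values of -8.69, -7.92, -6.94 and 5.45 set a group with 0 reads, whose fitted value depends on the prior count, against another. The share of higher calls moved from 46.1% to 35.2% and 35.3% without control replicate 1 or 2 (18 kDa FGF2) and to 56.1% without 22.5 kDa replicate 1. No scaling moved the median of all genes by over 0.1.

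Replicate numbers did not pair the libraries in the same direction over the groups. Correlations of same-numbered deviations were -0.27 (empty vector with 18 kDa FGF2), 0.39 (empty vector with 22.5 kDa FGF2) and -0.41 (between the isoforms). A difference shared between replicates with the 18 kDa libraries in reverse order was not modelled. With the replicate block, 1210, 1523 and 337 genes passed. Depth limits CX3CL1, C5AR1 and C5AR2, whose lowest groups hold 0 to 11 reads.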
